A study of Mus musculus with 5 samples.

Results

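A set of 9 genes of killer lymphocytes was followed through single-cell RNA profiles of mouse mammary gland and of a mammary tumor. They are the granzymes Gzma, Gzmb and Gzmk, the pore protein gene Prf1, the granule protein gene Nkg7, the death ligand gene Fasl, the cytokine gene Ifng, and the transcription factor genes Eomes and Tbx21. These 9 members were taken by symbol from the 27998 genes of the deposited count tables. All libraries came from mice that carry Krt14cre and Trp53 flox/flox. The transgene puts Cre under the promoter of keratin 14, a basal epithelial keratin, and was not directed at lymphocytes. Which cells had lost the floxed genes was not examined here. BPK mice were in addition Brca1 wt/flox, and PK mice were Brca1 wt/wt. The groups were a BPK tumor formed after 24 intraductal injections of 4NQO (1 library), BPK glands after 12 injections of 4NQO (2 libraries, replicates 1 and 2), PK glands after 12 injections of 4NQO (1 library) and BPK glands after 12 injections of the vehicle, PBS/PEG (1 library). 4NQO, 4-nitroquinoline 1-oxide, is a carcinogen that forms bulky DNA adducts. Lymph nodes had been taken out before the glands were dissociated. The labels do not give ages, and they do not say whether the 2 BPK 4NQO libraries came from separate animals. The p-values therefore speak for these libraries and not for animals. Their error estimate also draws on all genes tested, so it is not a gene's own spread between libraries.

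Natural killer (NK) cells and CD8 T cells kill by releasing granules that hold granzymes, which are serine proteases, and perforin, which lets them into the target cell. Interferon gamma, the product of Ifng, is their main secreted cytokine and acts on epithelium, macrophages and other cells through its receptor. The T-box factors Eomes and T-bet, the product of Tbx21, together with Runx proteins, are known regulators of these genes in mouse and human lymphocytes.

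Gzma, Gzmk, Prf1 and Nkg7 differed between NK and CD8 T cells in the test described below, and Ifng differed in no class comparison. The sequences upstream of these 5 members are shown. Each is the 250 bases before the RefSeq gene start on the gene's own strand, from GRCm38.p6, and all 9 members had an entry. The windows are chr13:113100982-113101231 (minus strand) for Gzma, chr13:113180966-113181215 (minus strand) for Gzmk, chr10:61297586-61297835 (plus strand) for Prf1, chr7:43436888-43437137 (plus strand) for Nkg7 and chr10:118440796-118441045 (plus strand) for Ifng. Capitals mark the T-box core GGTGTG and the Runx core TGTGGT, which read CACACC and ACCACA on the opposite strand.
Gzma: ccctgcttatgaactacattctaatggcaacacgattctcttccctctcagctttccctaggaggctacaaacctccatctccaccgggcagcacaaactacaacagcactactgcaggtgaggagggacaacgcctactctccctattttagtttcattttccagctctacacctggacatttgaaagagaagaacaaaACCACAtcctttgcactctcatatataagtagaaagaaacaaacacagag
Gzmk: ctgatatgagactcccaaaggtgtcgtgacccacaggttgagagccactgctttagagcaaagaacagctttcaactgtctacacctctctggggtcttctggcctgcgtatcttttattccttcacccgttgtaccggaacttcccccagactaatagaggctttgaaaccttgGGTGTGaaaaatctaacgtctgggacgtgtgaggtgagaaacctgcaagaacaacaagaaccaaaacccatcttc
Prf1: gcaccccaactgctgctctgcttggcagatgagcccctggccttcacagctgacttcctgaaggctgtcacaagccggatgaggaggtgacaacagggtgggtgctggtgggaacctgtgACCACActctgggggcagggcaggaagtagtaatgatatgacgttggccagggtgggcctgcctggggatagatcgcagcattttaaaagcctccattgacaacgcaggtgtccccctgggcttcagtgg
Nkg7: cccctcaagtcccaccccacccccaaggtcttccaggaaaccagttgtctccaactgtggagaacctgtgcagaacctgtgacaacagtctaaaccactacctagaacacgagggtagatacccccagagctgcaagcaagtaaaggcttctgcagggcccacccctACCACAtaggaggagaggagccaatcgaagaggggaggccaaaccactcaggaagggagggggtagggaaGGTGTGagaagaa
Ifng: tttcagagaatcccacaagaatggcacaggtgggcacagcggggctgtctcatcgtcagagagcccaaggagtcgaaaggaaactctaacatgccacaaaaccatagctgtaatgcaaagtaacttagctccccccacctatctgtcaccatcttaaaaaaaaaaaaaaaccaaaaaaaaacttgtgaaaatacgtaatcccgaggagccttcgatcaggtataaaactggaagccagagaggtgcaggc

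The Runx core lay 50 to 45 bases before the start of Gzma and 130 to 125 bases before that of Prf1, and at 2 places in the window of Gzmb, 93 to 88 and 34 to 29 bases before the start. The T-box core lay 75 to 70 bases before the start of Gzmk and 13 to 8 bases before that of Nkg7, which also held a Runx core. These are RefSeq starts, and those of Gzmk, Nkg7 and Prf1 lie inside the gene spans of the GENCODE annotation (chr7:43437073-43438249 for Nkg7), so the 2 annotations differ on where these genes begin. Among all 32851 promoter windows of this length 16.3% held the T-box core and 14.0% the Runx core on either strand. The Ifng window held neither, but had the TATA box letters TATAAA, found in 12.4% of windows, 30 to 25 bases before the start. Of the 4 members without a printed sequence, Fasl held a T-box core and Gzmb an AP-1 match (TGANTCA, 6.75% of windows), while the windows of Eomes and Tbx21 held none of the 6 motifs searched. The remaining motifs were STAT (TTCNNNGAA, 7.02% of windows, in Nkg7 and Ifng) and ETS (ACAGGAAG, 2.9%, in no member), and no hit overlapped another motif's hit. Gzma and Gzmk lie 70.6 kb apart on chromosome 13 (chr13:113093825-113100981 and chr13:113171608-113225908 in the GENCODE annotation of GRCm38), both protein-coding and on the minus strand. Gzmb lies on chr14:56258838-56262260 and Ifng on chr10:118441046-118445892.

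Values are unique molecular identifiers (UMIs), each standing for 1 captured transcript, and levels are given as CPM, a gene's UMIs scaled to a total of 1000000 UMIs of the same cells. Libraries held 27383717 to 64169843 UMIs, with a median of 2523 (BPK 4NQO replicate 2) to 15195.5 (tumor) per barcode. BPK 4NQO replicate 2 shared 1 or 2 barcodes with any other library, against 26 to 107 between the other pairs, so it stands apart in its barcodes. Whether it was made with another barcode set is not given in the sources used here, and the part of this in the differences between replicates 1 and 2 was not tested. After filtering, 31458 of 34526 barcodes were kept. Lymphocytes were gated on markers that are not members. A T cell had UMIs of at least 2 of the 3 Cd3 genes and of a leukocyte gene, and was a CD8 T cell with a Cd8a or Cd8b1 UMI and an "other T cell" without one. An NK cell had at least 2 of 8 NK receptor genes and fewer than 2 Cd3 genes, a gate that does not separate NK cells from other innate lymphoid cells with those receptors. The gates held 622 cells. NK, CD8 T and other T cells numbered 1, 3 and 11 in the BPK tumor, 41, 40 and 73 in BPK 4NQO replicate 1, 43, 161 and 163 in replicate 2, 8, 20 and 20 in PK 4NQO, and 23, 1 and 14 in BPK vehicle. Levels of the gating genes follow from the gates and are no separate check of the class names. In the BPK 4NQO libraries the Cd3 genes stood at 209 and 161.6 CPM in NK cells. They had 2145 and 2164 CPM in CD8 T cells and 3070 and 2496 CPM in other T cells. The NK list stood at 4764 and 2391 CPM in NK cells and 222.9 and 173.3 CPM in CD8 T cells. In other T cells it stood at 358.8 and 104.4 CPM. In BPK vehicle and PK 4NQO it stood at 4104 and 4440 CPM in NK cells, and 1085 and 541.2 CPM in other T cells. Cd8a and Cd8b1 were at 0 in NK cells of replicate 1 and together at 145.4 CPM in NK cells of replicate 2. Median UMIs per cell were 1007 to 1028 in NK cells, 1549 and 1632 in CD8 T cells and 1161 and 1237 in other T cells of the sums tested for BPK mice.

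Most UMIs of 7 members lay in the 3 gated classes, which made up 0.439% to 5.60% of kept cells. Over all libraries they held 69.9% of Gzmb UMIs, 69.1% of Gzma, 65.7% of Gzmk, 65.0% of Nkg7, 56.0% of Prf1, 53.1% of Ifng (223 of 420 UMIs) and 51.4% of Eomes, against 48.2% of Fasl and 42.4% of Tbx21. Much of the remainder sat in leukocytes that showed only 1 Cd3 gene, with 19.0% of Gzmk, 16.2% of Fasl and 15.5% of Ifng UMIs. NK cells alone held 47.9% of Gzma UMIs but none of Gzmk. CD8 T cells held 48.6% of Gzmk UMIs and 5.82% of Gzma. In epithelial cells, which should lack these genes, 0 to 0.171% of cells per library had an Ifng UMI and 0.0402% to 0.298% a Gzma UMI, at median depths of 3430 to 30030 UMIs, above those of the lymphocytes. The plot of the classes that hold each gene's UMIs shows this split.

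**Figure D1:**
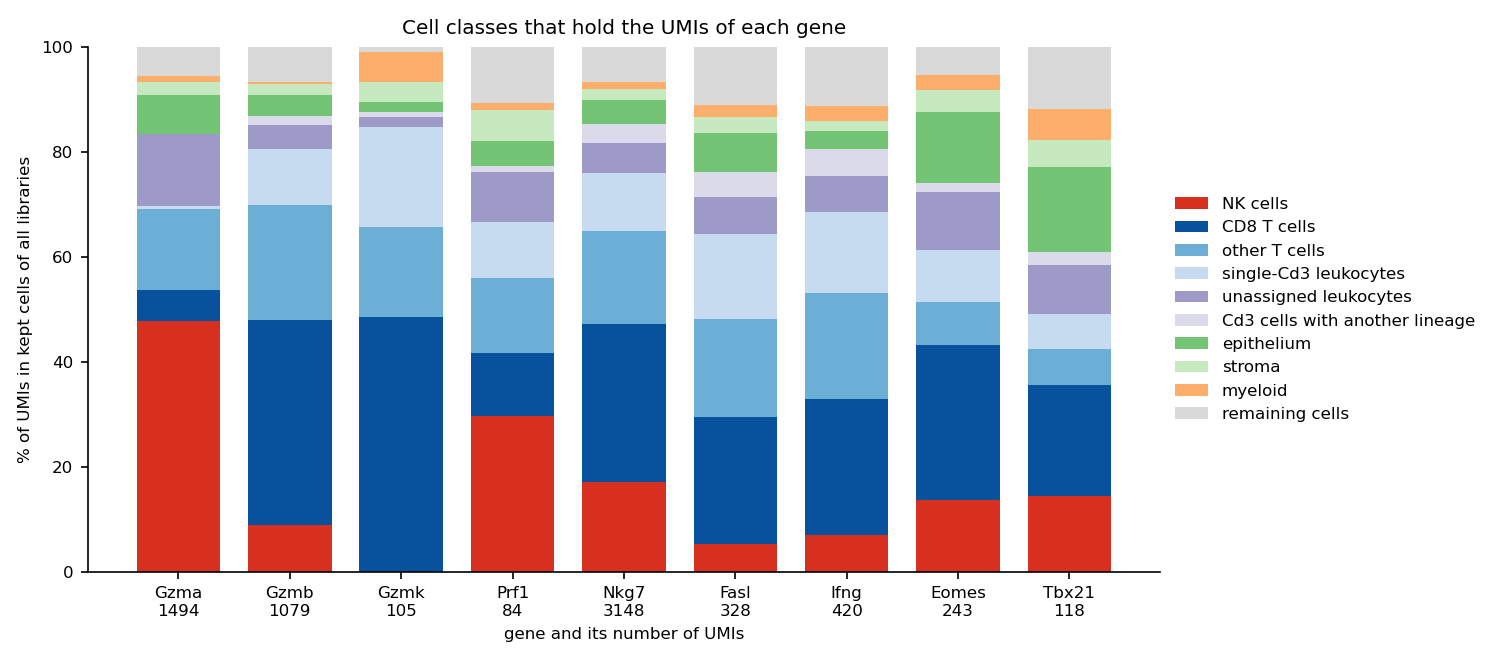
Stacked bars give the percent of each gene's UMIs, over the kept cells of all 5 libraries, that lie in each cell class; the number under a gene is its UMI total. Red marks NK cells, the darker blues CD8 T and other T cells: NK cells hold the greatest share of Gzma (47.9%) and CD8 T cells that of Gzmk (48.6%), of which NK cells hold none.

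Gzma, a granzyme of NK cells and some T cells, was the member that set NK cells apart. In NK cells it stood at 6498 and 2278 CPM in BPK 4NQO replicates 1 and 2, 6861 CPM in PK 4NQO and 7457 CPM in BPK vehicle (Poisson 95% interval 6432 to 8600, counting error only). CD8 T cells had 306.5 and 9.12 CPM in BPK 4NQO replicates 1 and 2, the second from 3 UMIs, and 527.5 CPM in PK 4NQO, from 17 UMIs in 1 cell. Every NK value lay above every CD8 T value among the sums of at least 8 cells. A Gzma UMI was seen in 35 of 41 and 27 of 43 NK cells of the BPK 4NQO replicates against 6 of 40 and 2 of 161 CD8 T cells. With each cell thinned to 800 UMIs, to set aside depth, the shares were 77.3% and 48.3% of NK cells against 10.2% and 0.431% of CD8 T cells. Thinning left out shallower cells, 8 and 8 NK cells, 6 and 10 CD8 T cells and 6 and 24 other T cells of replicates 1 and 2. The log2 fold change of NK over CD8 T cells in those 2 libraries was 5.35 ± 0.32 (SE, edgeR adjusted p = 1.126e-19), and came to 4.48 in replicate 1 alone and 7.76 in replicate 2 alone. Other T cells had 655.4 and 56.5 CPM in the BPK 4NQO replicates, and in replicate 1 a single cell carried 62 of the 95 UMIs. In BPK vehicle they had 3886 CPM, with 73 of 86 UMIs in 1 cell. NK cells therefore again lay higher in both BPK 4NQO replicates, by 4.06 ± 0.29 on the log2 scale (edgeR adjusted p = 4.289e-16), with 3.37 in replicate 1 alone and 5.20 in replicate 2 alone.

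Gzmk, a granzyme known from T cells with a memory-like state, had the opposite distribution to its chromosomal neighbor. No Gzmk UMI was found in the 116 NK cells of the 5 libraries, which allows up to 2.59% of such cells to show a UMI at this depth and sets no limit on the share that expresses the gene. CD8 T cells had 97.5 and 103.3 CPM in BPK 4NQO replicates 1 and 2 (14 UMIs in 5 of 40 cells and 34 in 24 of 161) and 93.1 CPM in PK 4NQO. These 3 libraries thus gave nearly the same level. In PK 4NQO the 8 NK cells are too few to set beside it, since 3 UMIs among them would already come to 302.7 CPM. Set against a floor of 3 UMIs per library, Gzmk was at least 1.56-fold lower in NK than in CD8 T cells in BPK 4NQO replicate 1 and at least 2.13-fold lower in replicate 2, and the test called it (edgeR adjusted p = 0.003426). The call was lost with DESeq2 (adjusted p = 0.1016), and Gzmk did not pass the low-count filter with 3 Cd3 genes in the gate or with 3 libraries. Other T cells had 27.6, 52.2 and 57.0 CPM in BPK 4NQO replicates 1 and 2 and in PK 4NQO. Against these the difference from NK cells, at 0, was not called (edgeR adjusted p = 0.1249), nor was CD8 over other T cells, at 1.24 ± 0.45 on the log2 scale (edgeR adjusted p = 0.233). Gzmk was at 0 in all cells of the BPK tumor and of BPK vehicle.

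Gzmb is the granzyme that cleaves caspase substrates in target cells. Its level was highest in CD8 T cells of both BPK 4NQO replicates, but no class comparison was called in the main fit. NK cells had 794.0 and 387.8 CPM in BPK 4NQO replicates 1 and 2, CD8 T cells 1226 and 556.3 CPM and other T cells 731.3 and 304.4 CPM. Replicate 1 was the higher in each class, by about as much as the classes differed from one another. A Gzmb UMI was seen in 19 of 41 and 14 of 43 NK cells, 23 of 40 and 68 of 161 CD8 T cells and 18 of 73 and 41 of 163 other T cells. Thinned to 800 UMIs these shares were 32.9% and 17.7%, 48.1% and 27.5%, and 20.1% and 20.3%. NK over CD8 T cells gave a log2 fold change of -0.62 ± 0.27 (edgeR adjusted p = 0.169), NK over other T cells 0.20 ± 0.28 (0.828) and CD8 over other T cells 0.82 ± 0.23 (0.05762).

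Prf1, which encodes perforin, was sparse, and in the BPK 4NQO libraries its level was highest in NK cells. NK cells had 146.3 and 242.4 CPM in BPK 4NQO replicates 1 and 2 (7 and 15 UMIs) and 118.4 CPM in BPK vehicle (3 UMIs), and were at 0 among 8 cells in PK 4NQO. CD8 T cells had 0 and 27.4 CPM in the BPK 4NQO replicates and 31.0 CPM in PK 4NQO (1 UMI), and other T cells 6.90 and 43.5 CPM in the BPK 4NQO replicates. In both replicates the NK value was the highest of the 3 classes, and in replicate 1 it was at least 7.0-fold above the CD8 T cells. The log2 fold change was 3.49 ± 0.66 over CD8 T cells (edgeR adjusted p = 0.0001207) and 2.79 ± 0.63 over other T cells (edgeR adjusted p = 0.002159), and in replicate 2 alone 3.01 and 2.35.

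Nkg7, a membrane protein of cytotoxic granules needed for their release in mouse lymphocytes, was found in most NK and CD8 T cells. NK cells had 5642 and 1503 CPM in BPK 4NQO replicates 1 and 2, 3834 CPM in PK 4NQO and 5327 CPM in BPK vehicle, with UMIs in 40 of 41, 33 of 43, 7 of 8 and 23 of 23 cells. CD8 T cells had 2696, 1307 and 3475 CPM in BPK 4NQO replicates 1 and 2 and PK 4NQO, with UMIs in 40 of 40, 130 of 161 and 20 of 20 cells. Other T cells had 1849, 747.9 and 1965 CPM in the same libraries. Thinned to 800 UMIs the share with a UMI in the BPK 4NQO replicates was 95.3% and 63.3% of NK cells, 87.3% and 61.5% of CD8 T cells and 62.6% and 38.2% of other T cells. Within each BPK 4NQO library the order was NK, CD8 T and other T cells, although replicate 2 lay below replicate 1 throughout. NK over CD8 T cells came to 0.63 ± 0.19 on the log2 scale (edgeR adjusted p = 0.02292), NK over other T cells to 1.34 ± 0.19 (6.164e-07) and CD8 over other T cells to 0.70 ± 0.18 (0.03915). The step between NK and CD8 T cells rested on replicate 1: it was 1.15 with that replicate alone and 0.09 with replicate 2 alone. Its call was lost with DESeq2 (adjusted p = 0.525), with 1 Cd3 gene in the gate (edgeR adjusted p = 0.06894) and without the low-count filter (edgeR adjusted p = 0.5361).

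Fasl, the ligand that triggers death through Fas, was carried by all 3 classes. NK cells had 83.6 and 113.1 CPM in BPK 4NQO replicates 1 and 2, CD8 T cells 195.0 and 133.7 CPM and other T cells 103.5 and 147.8 CPM. The order of the classes was not the same in the 2 replicates, and no class comparison was called, with log2 fold changes of -0.69 ± 0.50 for NK over CD8 T cells, -0.40 ± 0.52 for NK over other T cells and 0.29 ± 0.34 for CD8 over other T cells (edgeR adjusted p of 0.5174, 0.8169 and 0.8578).

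Ifng was likewise found in every class at levels that could not be ordered. NK cells had 229.8 and 161.6 CPM in BPK 4NQO replicates 1 and 2 and 504.5 CPM in PK 4NQO (5 UMIs), CD8 T cells 132.4, 237.1 and 372.4 CPM, and other T cells 255.3, 165.2 and 199.4 CPM. The highest class was other T in BPK 4NQO replicate 1, where 1 cell held 15 of the 37 UMIs, CD8 T in replicate 2 and NK in PK 4NQO. The log2 fold changes were -0.08 ± 0.42 for NK over CD8 T cells, -0.12 ± 0.43 for NK over other T cells and -0.03 ± 0.32 for CD8 over other T cells (edgeR adjusted p of 0.9469, 0.9598 and 0.9841), and their signs turned under some of the alternatives given in the closing section. An Ifng UMI was seen in 14.6% and 16.3% of NK cells, 27.5% and 21.7% of CD8 T cells and 20.5% and 11.7% of other T cells of BPK 4NQO replicates 1 and 2. Thinned to 800 UMIs these shares became 14.2% and 6.33%, 10.2% and 11.3%, and 11.2% and 7.72%. Read against the share of at most 0.171% in epithelium, Ifng UMIs in all 3 classes were above background.

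The T-box factor genes were scarce and higher in NK cells than in other T cells. Eomes, the factor of NK cells and memory CD8 T cells, had 167.2 and 339.3 CPM in NK cells of BPK 4NQO replicates 1 and 2, 62.7 and 179.3 CPM in CD8 T cells and 6.90 and 78.3 CPM in other T cells. The order NK, CD8 T, other T held in both replicates, and all 3 values were higher in replicate 2. The log2 fold change of NK over other T cells was 2.44 ± 0.50 (edgeR adjusted p = 0.0004746; 4.45 in replicate 1 alone and 1.99 in replicate 2 alone), that of NK over CD8 T cells 0.99 ± 0.42 (0.1545) and that of CD8 over other T cells 1.44 ± 0.44 (0.09524). Tbx21 had 104.5 and 129.3 CPM in NK cells, 34.8 and 57.8 CPM in CD8 T cells and 6.90 and 21.7 CPM in other T cells. These rest on 5 and 8, 5 and 19, and 1 and 5 UMIs. NK over other T cells came to 2.83 ± 0.78 on the log2 scale (edgeR adjusted p = 0.01525; 0.1321 with DESeq2; 2.43 in replicate 2 alone), NK over CD8 T cells to 1.24 ± 0.62 (0.2715) and CD8 over other T cells to 1.59 ± 0.70 (0.3662).

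**Figure D2:**
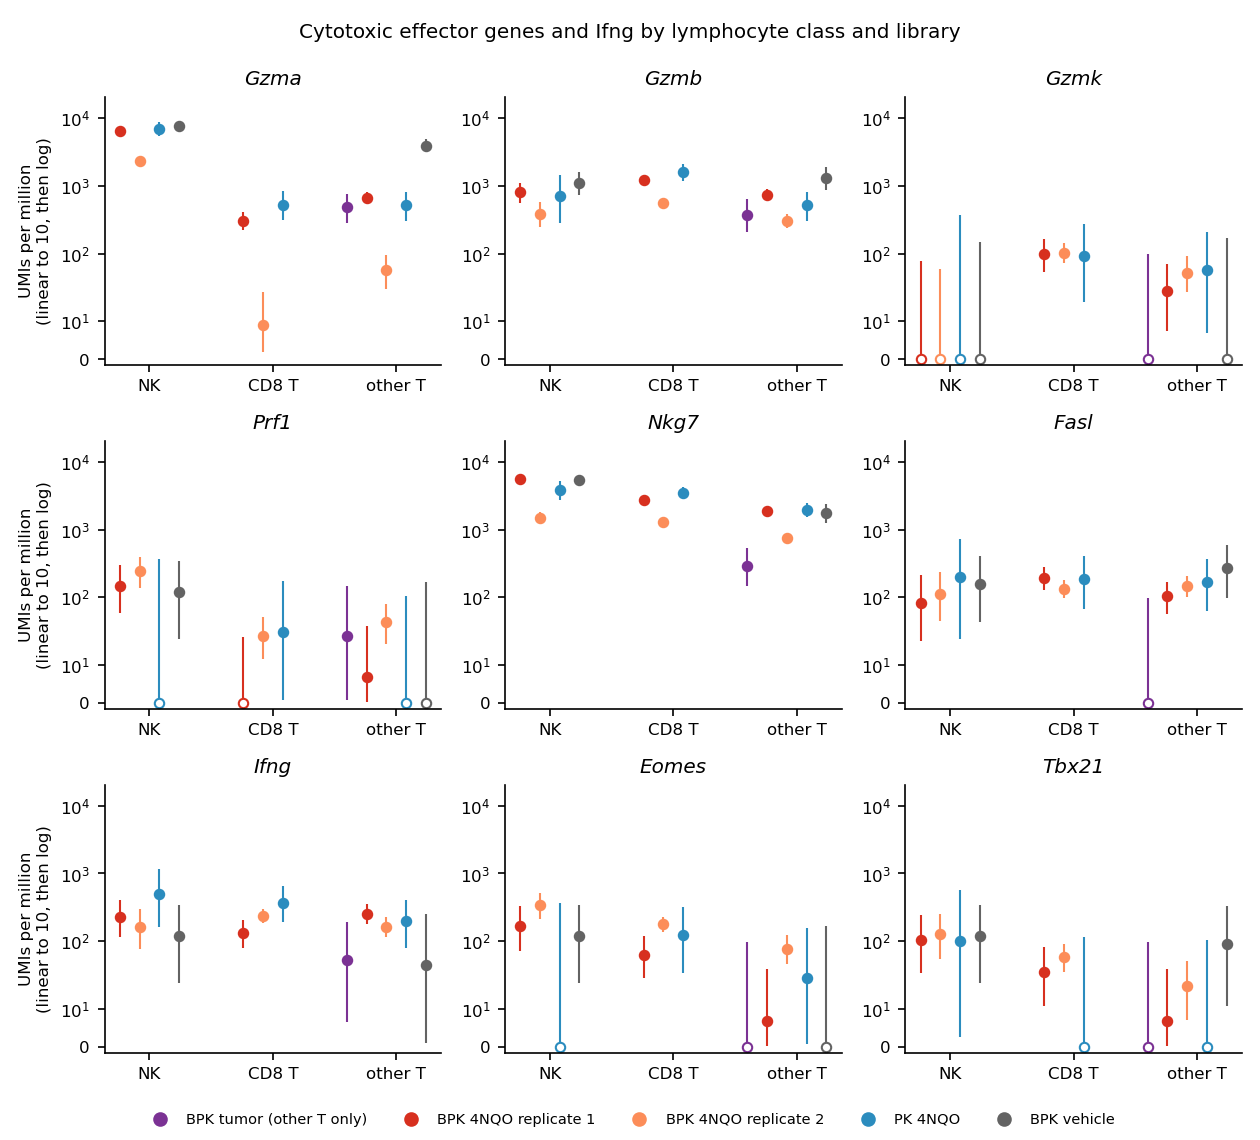
Each panel gives 1 gene's level in CPM (linear to 10, then log) in NK, CD8 T and other T cells of each library with at least 8 cells of the class. Bars are exact Poisson 95% intervals (counting error only) and open symbols mark 0 UMIs. Gzma sits highest in NK cells, as does Prf1 except in PK 4NQO, where NK cells are at 0; Gzmk is at 0 in NK cells, and Ifng and Fasl overlap across classes.

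Counted together, 4 of the 9 members differed between NK and CD8 T cells, against 7.69% of all 2810 genes tested (3.88% higher and 3.81% lower): Gzma, Prf1 and Nkg7 were higher and Gzmk lower in NK cells. Between NK and other T cells 5 of 9 were called, all higher in NK cells (Gzma, Nkg7, Prf1, Eomes and Tbx21), against 5.59% of genes tested (2.67% higher and 2.92% lower). Between CD8 and other T cells 2 of 9 were called, with Nkg7 higher and Gzma lower in CD8 T cells (-1.29 ± 0.35, edgeR adjusted p = 0.04956; -1.11 in replicate 1 alone and -2.56 in replicate 2 alone), against 1.14% of genes tested (0.32% higher and 0.819% lower). The median log2 fold change over the 9 members was 0.63, 1.34 and 0.70 in the 3 comparisons, beside -0.08, -0.04 and 0.01 over all genes tested. All members passed the low-count filter in these fits. They rest on 2 libraries with at least 20 cells of every class, and on the library as a block: without the block none of the 9 was called in any of the 3 comparisons. The 2 calls between CD8 and other T cells were also lost with DESeq2, with RLE scaling, with a T cell gate of 1 Cd3 gene and with 3 libraries, and that of Gzma with 3 Cd3 genes as well. The Gzma UMIs of other T cells lay largely in 1 cell of each replicate, 62 of 95 and 10 of 13 in replicates 1 and 2.

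**Figure D3:**
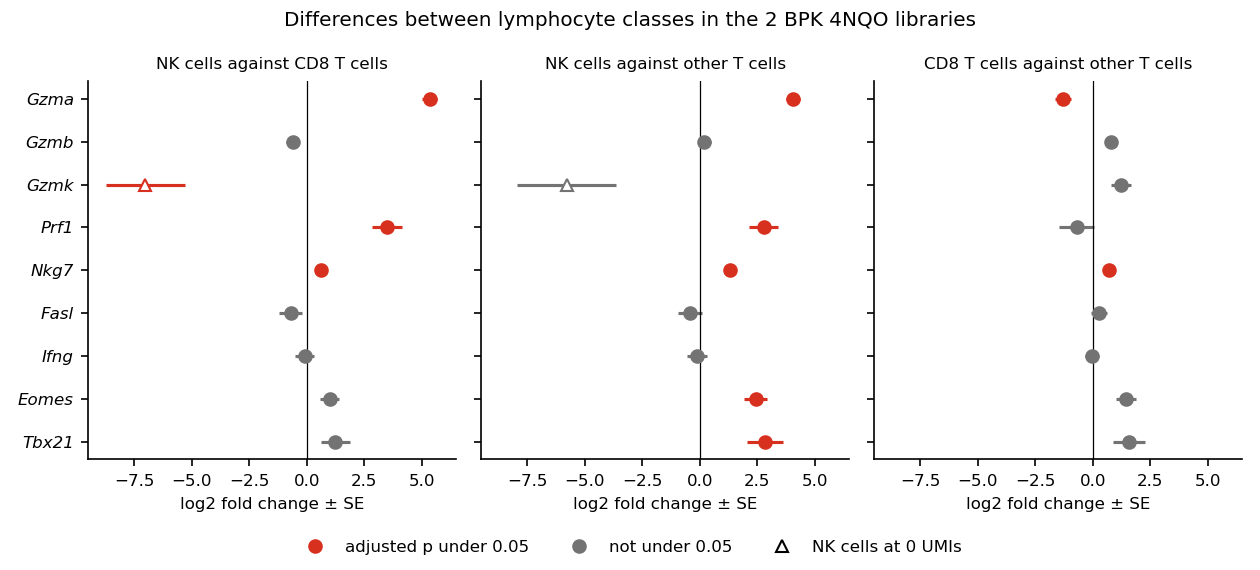
Points give the log2 fold change of each gene between lymphocyte classes in the 2 BPK 4NQO libraries, with its standard error, red where the edgeR adjusted p was under 0.05. Triangles mark Gzmk, where NK cells had 0 UMIs and the fitted size is no bound. Gzma lies at 5.35 and 4.06 in the NK comparisons, and Ifng lies at -0.08, -0.12 and -0.03.

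Several members were found together in some cells of each class. At least 1 of the 9 was seen in 40 of 41 and 43 of 43 NK cells, 40 of 40 and 146 of 161 CD8 T cells and 55 of 73 and 96 of 163 other T cells of BPK 4NQO replicates 1 and 2. Of the NK cells with Gzmb, 18 of 19 and 12 of 14 also had Gzma. Among all NK cells of these replicates Gzma was seen in 35 of 41 and 27 of 43. Among CD8 T cells the pair was rare, since 6 and 2 cells had Gzma at all. Of the CD8 T cells with Ifng, 8 of 11 and 19 of 35 had Gzmb. Among all CD8 T cells Gzmb was seen in 23 of 40 and 68 of 161. Of the CD8 T cells with Gzmk in replicate 2, 13 of 24 had Eomes, the T-box factor, and 1 of 24 had Gzma. Over both T cell classes of replicate 2 Eomes was seen in 55 of 324 cells. In replicate 1 Gzma was found in 4 of the 5 CD8 T cells with Gzmk. At least 3 members were seen in 26 of 41 and 22 of 43 NK cells, 21 of 40 and 68 of 161 CD8 T cells and 13 of 73 and 29 of 163 other T cells. These counts are descriptions, since cells of a library share its depth.

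Other T cells were a mixture. In BPK 4NQO replicate 1, 15 of the 73 had a Cd4 UMI and no Foxp3 UMI. Of these, 7 carried 23 of the class's 37 Ifng UMIs, 6 carried 20 Gzmb UMIs, and none had Gzma. A single cell held 15 of the 23 Ifng UMIs, and 1 cell held 8 of the 20 Gzmb UMIs. These Cd4 cells were also deeper, with a median of 3287 UMIs against 1118 in the cells with neither marker. In replicate 2 the 15 cells of that kind had no Ifng and no Gzmb UMI. The 19 cells with Foxp3, the factor of regulatory T cells, in replicate 2 had 9 Gzmb UMIs in 4 cells and 1 Ifng UMI. The cells with neither marker, 58 and 129, held all 95 and 13 Gzma UMIs of the class. T cell receptor constant and gamma delta genes are not used here, so these cells cannot be divided further.

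Other genes of the same pathways followed in part. Of 7 further killer cell receptor and chemokine genes, 5 were higher in NK than in CD8 T cells, led by Ccl3 (3.32 ± 0.47 on the log2 scale, edgeR adjusted p = 3.36e-07), Xcl1 (2.69 ± 0.27, 4.205e-11) and Ccl4 (2.13 ± 0.27, 3.188e-08), which recruit other leukocytes. Ccl3 had 773.1 and 274.7 CPM in NK cells against 13.9 and 63.8 CPM in CD8 T cells of BPK 4NQO replicates 1 and 2. Against other T cells 5 of 7 were again higher in NK cells, among them Klrk1, the gene of the activating receptor NKG2D (2.51 ± 0.39, edgeR adjusted p = 2.376e-06). Between CD8 and other T cells none of the 7 was called. Shares of all genes called higher were 3.88% in NK against CD8 T cells and 2.67% in NK against other T cells. The share was 0.32% in CD8 against other T cells. Without the library as a block 4, 0 and 0 genes were called higher in the 3 comparisons, and none lower. The list medians were 2.13, 1.91 and -0.20 in the 3 comparisons.

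Among the granzyme inhibitors Serpinb6b was higher in NK cells than in CD8 T cells (1.39 ± 0.31, edgeR adjusted p = 0.001199) and other T cells (1.41 ± 0.31, 0.001736). Serpinb9, which protects killer cells from their own granzyme B, was higher in NK (1.69 ± 0.30, edgeR adjusted p = 5.051e-05) and in CD8 T cells (1.01 ± 0.27, 0.04289) than in other T cells. These were 1, 2 and 1 of the 3 inhibitors tested in NK against CD8 T, NK against other T and CD8 against other T cells. Of the interferon gamma inducers 2 of 4 tested were higher in NK than in CD8 T cells, the IL-18 receptor chain gene Il18rap (1.82 ± 0.49, edgeR adjusted p = 0.009851) and the IL-2 and IL-15 receptor chain gene Il2rb (1.26 ± 0.35, 0.01387), while Ifng itself did not differ beyond its error. In the interferon gamma receptor and signalling list Jak1 was higher in NK cells than in either T cell class (1.13 ± 0.28 and 1.14 ± 0.28, edgeR adjusted p of 0.004257 and 0.006386), of 5 tested. Of 6 granule content and release genes tested, Ctsw, a protease gene of killer cells, was higher (1.19 ± 0.32, edgeR adjusted p = 0.01238) and Stx11, a fusion protein gene of granule release, lower (-2.44 ± 0.71, 0.02494) in NK than in other T cells. None of the 3 death ligand, receptor and caspase genes and none of the 7 transcription factor genes tested was called in the 3 comparisons. The shares of all genes called higher, and the counts without the block, are those given for the receptor and chemokine genes. Of all genes 2.92% were called lower in NK against other T cells.

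The study's design sets BPK against PK glands after 4NQO, 4NQO against vehicle in BPK mice, and the tumor against the BPK 4NQO glands. The 3 comparisons share the BPK 4NQO libraries. Over all kept cells Ifng stood at 0.301 CPM in the BPK tumor, 2.22 and 9.87 CPM in BPK 4NQO replicates 1 and 2, 1.47 CPM in PK 4NQO and 0.193 CPM in BPK vehicle. Nkg7 had 1.96, 28.8, 47.8, 10.7 and 4.37 CPM in the same order, and Gzmb 0.301, 8.97, 19.4, 3.08 and 1.56 CPM. For all 9 members both BPK 4NQO libraries lay above PK 4NQO, above BPK vehicle and above the tumor. In sums over all cells, fewer cells of a type and less RNA per cell cannot be told apart. The gated lymphocytes made up 0.671% of kept cells in the BPK tumor, 2.20% and 5.60% in BPK 4NQO replicates 1 and 2, 0.687% in PK 4NQO and 0.439% in BPK vehicle. The 3 Cd3 genes together had 3.40, 22.6, 73.0, 8.03 and 2.89 CPM in these libraries. Like the members, they were highest in the 2 BPK 4NQO libraries. The order of the other libraries was not shared by all members. The tumor lay above BPK vehicle for the Cd3 genes and Ifng and below it for Nkg7 and Gzmb. The NK receptor genes of the gate, leaving out Klra4, had 2.46, 8.90, 12.4, 3.85 and 3.17 CPM in the same libraries. Of the tumor's 139 UMIs of these genes, 88 lay in keratinocytes and 10 in the NK gate. The tumor value is therefore no measure of NK cells alone. Markers of other cell types differed too. The 7 macrophage markers had 322.3, 145.5, 917.8, 67.2 and 93.7 CPM, the 8 dendritic cell markers 272.6, 30.0, 133.4, 21.8 and 21.7 CPM and the 6 fibroblast markers 2223, 1114, 8051, 782.1 and 1023 CPM in the same libraries, all detected except 1 dendritic cell marker in the tumor. The mitochondrial filter removed 12.9% of tumor barcodes and 0.84% to 2.15% of those of the other libraries, and the part of these differences in the members' levels was not tested.

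Gzma had 0.602 CPM in the BPK tumor, 13.4 and 11.9 CPM in BPK 4NQO replicates 1 and 2, 4.09 CPM in PK 4NQO and 7.94 CPM in BPK vehicle. It is the one member on which the 2 BPK 4NQO libraries were close and vehicle came near them. Gzmk had 0.584 and 2.74 CPM in the BPK 4NQO replicates and 0.336 CPM in PK 4NQO. The tumor had 0.0531, 0.195, 0.124 and 0.0708 CPM of Prf1, Fasl, Eomes and Tbx21. For these 4 genes replicate 2 was 2.46, 8.25, 7.26 and 3.05 CPM and replicate 1 0.210, 1.57, 0.654 and 0.537 CPM, so the spread between the BPK 4NQO libraries was wide. PK 4NQO had 0.0916, 0.733, 0.305 and 0.153 CPM and BPK vehicle 0.123, 0.316, 0.263 and 0.158 CPM.

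**Figure D4:**
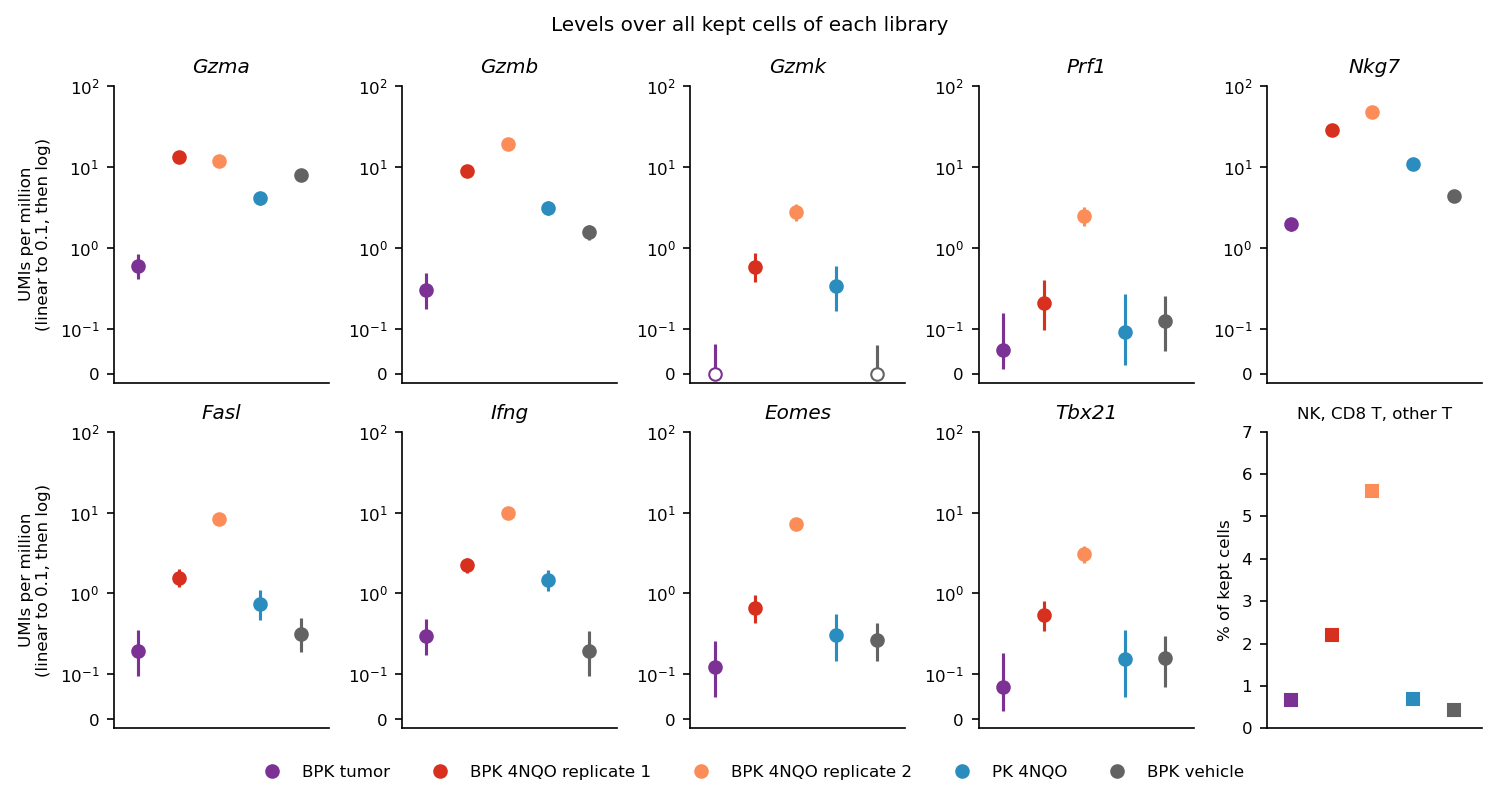
Each panel gives 1 gene's level over all kept cells of a library in CPM (linear to 0.1, then log) with exact Poisson 95% intervals, and the last panel the percent of kept cells in the NK, CD8 T and other T gates. BPK 4NQO replicate 2 holds the highest share of lymphocytes, 5.60%, and is highest for 8 of the 9 genes; the tumor is lowest or at 0 for 8 of 9.

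In BPK 4NQO against BPK vehicle, 0 of 9 members passed the test over all cells (edgeR), where 0.585% of 16744 genes did (0.49% higher and 0.0956% lower). At an unadjusted p under 0.05 there were 6, and DESeq2 called 2, Ifng and Nkg7. The log2 fold changes ran between 0.45 ± 0.89 for Gzma and 4.58 ± 1.38 for Ifng (edgeR adjusted p of 1.0 and 0.1041), leaving out Gzmk, with a median over the 9 of 3.09 beside 0.00 over all genes. The Ifng value was 3.46 with replicate 1 alone and 5.22 with replicate 2 alone. Gzmk, at 0 in vehicle, was at least 11.1-fold higher in BPK 4NQO replicate 1 and at least 52.0-fold higher in replicate 2. In BPK 4NQO against PK 4NQO again 0 of 9 were called (edgeR), beside 0.358% of genes (0.328% higher and 0.0299% lower). There was 1 at an unadjusted p under 0.05, Eomes, and 0 with DESeq2. The median was 1.90, and Ifng had a log2 fold change of 1.65 ± 1.15 (edgeR adjusted p = 1.0), 0.55 with replicate 1 alone and 2.31 with replicate 2 alone. PK 4NQO was counted with Cell Ranger 3.0.2 and the BPK libraries with 5.0.1. Genotype and counting version cannot be told apart in this comparison. With only 1 library in the tumor, PK 4NQO and vehicle groups, all 3 fits over all cells had 1 residual degree of freedom. Their spread between libraries comes from the 2 BPK 4NQO libraries alone.

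Between the BPK tumor and the BPK 4NQO glands 4 of 9 members were called over all cells, all lower in the tumor, against 4.85% of genes called in either direction (483 higher and 329 lower; 371 and 160 with RLE scaling) and 1.96% called lower. They were Gzmb (-4.97 ± 1.20, edgeR adjusted p = 0.002249), Nkg7 (-3.73 ± 0.98, 0.006675), Gzma (-3.90 ± 1.09, 0.01292) and Gzmk (0.02709), which was at 0 in the tumor and so at least 11.0-fold and 51.5-fold lower than in BPK 4NQO replicates 1 and 2. Gzmk lost its call with RLE scaling. Ifng, at -3.68 ± 1.31, was not called (edgeR adjusted p = 0.07984; -2.56 against replicate 1 alone and -4.33 against replicate 2 alone). DESeq2 called it, and Fasl, lower as well. The median over the members was -3.96, beside -0.20 over all genes. Among the pathway genes the inducer Il12b, a subunit of interleukin-12, was also lower in the tumor, at 0.0354 CPM against 0.584 and 11.1 CPM in BPK 4NQO replicates 1 and 2 (-6.57 ± 1.66, edgeR adjusted p = 0.004193), 1 of 12 inducers tested. In the granule list 3 of 13 tested were higher in the tumor. Gzme had 4.48 CPM in the tumor and 0 and 0.119 CPM in the BPK 4NQO replicates (6.97 ± 1.43, edgeR adjusted p = 0.0001115). Gzmd had 2.02 CPM in the tumor and 0 in both replicates, which makes it at least 28.8-fold and 16.9-fold higher (edgeR adjusted p = 0.0004195). Ctsc, whose protease activates granzymes, had 208.1 CPM in the tumor against 25.4 and 76.9 CPM (2.64 ± 0.87, edgeR adjusted p = 0.04989). Most Gzmd and Gzme UMIs lay in fibroblasts, 106 of 114 and 235 of 253, and these granzymes are close paralogs whose reads may be split. The part of fibroblasts and keratinocytes in these sums was not tested. No pathway list gene was called over all cells in BPK 4NQO against vehicle or against PK 4NQO.

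Within the lymphocytes the order of libraries was not that of all cells. Over the 3 gated classes together Ifng had 42.5 CPM in the BPK tumor (2 UMIs), 199.2 and 202.9 CPM in BPK 4NQO replicates 1 and 2, 310.7 CPM in PK 4NQO (95% Poisson interval 199.1 to 462.3) and 81.1 CPM in BPK vehicle (4 UMIs, interval 22.1 to 207.6). The 2 BPK 4NQO libraries, with lymphocyte shares of 2.20% and 5.60%, gave nearly the same Ifng level within lymphocytes. Gzma had 509.6, 1338, 252.9, 1333 and 6041 CPM, Gzmb 297.3, 951.4, 446.2, 983.9 and 1358 CPM and Nkg7 594.6, 2750, 1119, 2835 and 3608 CPM in the same order of libraries. For these granule genes the 38 vehicle lymphocytes had the highest values. Their Poisson interval for Gzmb, 1053 to 1725, overlapped those of PK 4NQO (775.2 to 1232) and BPK 4NQO replicate 1 (850.0 to 1062). For Nkg7, 3098 to 4179 overlapped 2472 to 3237 in PK 4NQO. For Gzma it was 5375 to 6767, above all others, with 73 of the 298 UMIs in 1 cell. In the tumor, most Ifng UMIs and many Nkg7 UMIs lay in 2 cells with Cd3 genes that were kept out of the gates for markers of another lineage. The tumor's low gated values of these genes rest on leaving those cells out, so its place in the order depends on the gate. NK cells made up 41 of 154 and 43 of 367 gated lymphocytes in the BPK 4NQO replicates and 23 of 38 in BPK vehicle, and the part of this mix in the levels was not tested.

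Single classes could be tested in 3 cases. In NK cells of BPK 4NQO against BPK vehicle 0 of 6 members tested were called (edgeR, 0 at an unadjusted p under 0.05, 0 with DESeq2), where 0.0934% of 1071 genes were. Gzma had 6498 and 2278 CPM against 7457 CPM (-0.73 ± 1.08), and Ifng 229.8 and 161.6 CPM against 118.4 CPM (0.75 ± 1.70). In CD8 T cells of BPK 4NQO against PK 4NQO 0 of 7 were called (edgeR, 0 unadjusted, 0 with DESeq2; 0.0336% of 2974 genes), with Ifng at 132.4 and 237.1 CPM against 372.4 CPM (-0.93 ± 1.10). In other T cells of the same groups 0 of 6 were called (edgeR, 0 unadjusted, 0 with DESeq2; 0.0325% of 3076 genes), with Ifng at 255.3 and 165.2 CPM against 199.4 CPM (0.14 ± 1.19). Standard errors of about 1 or more on the log2 scale leave room for differences of several fold in either direction. In the T cell comparisons of BPK against PK, genotype and counting version again cannot be told apart. The tumor held too few cells of each class for a test.

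Genes near each member were sought across 54 sums of library and class with at least 20 cells, from 16 classes of the 5 libraries. They were ranked by Pearson r of log2(CPM + 10). Cell type markers, T cell receptor and immunoglobulin segments, the other members and genes with under 50 UMIs in all kept cells were left out. The nearest genes named here are the highest of those that remained. Ifng was nearest to Skap1 (r = 0.985) and Zap70 (0.981), a T cell adaptor gene and a T cell kinase gene. Gzma was nearest to Cd7 (0.959) and Xcl1 (0.959), Gzmb to Klrc1 (0.988) and Ptprcap (0.987), and Gzmk to Pdcd1 (0.943), the gene of the inhibitory receptor PD-1, and Fam169b (0.941). Nkg7 was nearest to Ctsw (0.990) and Ptprcap (0.989), Fasl to Skap1 (0.995) and Ptprcap (0.993), Eomes to Txk (0.950) and Sh2d2a (0.945), Prf1 to Gm19585 (0.930) and Klrb1f (0.922), and Tbx21 to Gm19585 (0.934) and Gpr18 (0.924). The sums share libraries and most classes lack all of these genes, so the values are a description.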

How the data were processed

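UMI counts of 3' single-cell libraries from mouse mammary tissue, as deposited, were used. The authors made them with Cell Ranger, per the file headers in version 3.0.2 (PK 4NQO) or 5.0.1 (all BPK libraries), and against mm10, per the submitters' processing notes. The annotation release, the cell-calling rule and any counting of introns were not given in the sources used here. Reads that match near-identical granzyme copies can be lost or split by such counting. The dose of 4NQO is not printed, because its unit is in doubt.

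Barcodes with fewer than 300 genes or over 20% mitochondrial counts were left out, and the top 0.8% per 1000 barcodes by scrublet score were removed as predicted doublets (scanpy 1.11.5). Cells were classed by the marker gates of the report. A cell with 3 markers of another lineage, or 2 B cell markers, was kept out of the T and NK gates. Counts were summed per library and class with at least 20 cells and tested with edgeR 4.0.16 (R 4.3.3): filterByExpr, TMM scaling, quasi-likelihood test, Benjamini-Hochberg adjustment over all genes tested, threshold 0.05. Class comparisons had the library as a block. Standard errors (SE) of edgeR values are approximate: the absolute log2 fold change divided by the square root of the F statistic. Planned comparisons between groups within a class were fitted only where the sums allowed it. Alternatives were DESeq2 1.42.0, RLE scaling, no low-count filter, predicted doublets kept, only the compared libraries, a gate of 3 Cd3 genes, no block, and each BPK 4NQO library left out. A gate of 1 Cd3 gene and a class fit with 3 libraries of at least 8 cells were added after seeing the data. The fits were tested on simulated data.

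Intervals are exact (Poisson for CPM, 95%) and cover counting error only, as does the floor of 3 counts used where a group is at 0. Genes named beside the members come from pathway lists, the 3 largest called changes per list and comparison, without the gate marker Klrd1. One result among these is not reported here. The members and lists were chosen with earlier results of these data known.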

Additional observations from a re-analysis of the deposited data

Results flagged for a closer look

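Several members gave a signal in cells outside the lymphocyte gates that exceeded the same class in BPK vehicle. Gzma reached 3.88 CPM in endothelium of BPK 4NQO replicate 1 (12 UMIs in 4 of 1066 cells) and 9.64 CPM in that of replicate 2 (13 UMIs in 9 of 500 cells), against 0 of 899 cells in BPK vehicle. Nkg7 reached 1.66 and 2.22 CPM in luminal alveolar cells of BPK 4NQO replicates 1 and 2 (18 of 1459 and 8 of 655 cells) against 0.403 CPM in BPK vehicle, and 4.60 CPM in basal cells of replicate 2 against 0.166 CPM in BPK vehicle. These levels are far below those in NK cells of the same libraries, 1503 CPM or more for both genes, and the part of free RNA and of undetected doublets was not tested. Gzmb stood at 430.0 CPM in the 17 mast cells of BPK 4NQO replicate 2 (15 UMIs in 3 cells), with no mast cells in BPK vehicle to set beside it.

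Other granzyme genes that are not members appeared in fibroblasts of the BPK tumor. Gzmc had 9.09 CPM there (39 UMIs in 22 of 259 cells), Gzmd 24.7 CPM (106 UMIs in 22 cells) and Gzme 54.8 CPM (235 UMIs in 30 cells), against 0 UMIs in the 750 fibroblasts of BPK vehicle, so they were at least 5.69-fold, 15.5-fold and 34.3-fold higher. These genes are close paralogs, and which of them each read came from is uncertain.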

How the results depend on the processing

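Of the alternative values of the members' log2 fold changes, 501 were counted as unchanged. Where there was a test, these kept their direction and their side of the threshold. The 61 and 43 of them from the fits without replicates 1 and 2, which have no test, lay within 1 standard error of the main value. Direction was not part of that rule, and some uncalled values changed sign. Fasl in CD8 T cells of BPK against PK 4NQO, for example, was 0.06 without replicate 2 and -0.11 in the main fit. A further 26 lost and 10 gained a call, and 29 moved by more than 1 standard error with a replicate left out. In fits with a test 11 turned sign, none of them a called value. Those that turned were Fasl in BPK against PK 4NQO without the low-count filter (0.27 in CD8 T and 0.0458 in other T cells), Gzmb in NK against other T cells without it (-0.0513), and Ifng. Ifng came to -0.77 in other T cells of BPK against PK 4NQO with 1 Cd3 gene in the gate, to 0.42 (3 Cd3 genes) and 0.0570 (3 libraries) in CD8 against other T cells, to 0.13 (3 libraries), 0.0325 (DESeq2) and 0.0544 (no block) in NK against CD8 T cells, and to 0.0609 (3 Cd3 genes) and 0.18 (3 libraries) in NK against other T cells. The number of members called became 2 with DESeq2 in BPK 4NQO against vehicle. In CD8 against other T cells it became 0 with 1 Cd3 gene, DESeq2, RLE scaling or no block, 1 with 3 libraries, and 3 with 3 Cd3 genes, no low-count filter or predicted doublets kept. Gzmb was gained under each of these last 4 settings, and Eomes with 3 Cd3 genes. In NK against CD8 T cells it became 2 with DESeq2 or 3 libraries and 0 with no block, and in NK against other T cells 4 with DESeq2 or 3 Cd3 genes, 3 with 3 libraries and 0 with no block. The cause was not tested, except that the fit of 3 libraries tested fewer genes and 6 members. Over all genes the calls higher and lower were 82 and 16 in BPK 4NQO against vehicle (9 and 5 with RLE scaling), 55 and 5 against PK 4NQO (27 and 3 with DESeq2, 18 and 4 with only the compared libraries, 3 and 2 with RLE scaling) and 483 and 329 in the tumor comparison (371 and 160 with RLE scaling, 503 and 514 with DESeq2). They were 109 and 107 in NK against CD8 T cells (54 and 18 with DESeq2, 78 and 50 with 3 libraries, 4 and 0 without the block), 75 and 82 in NK against other T cells (32 and 21, 51 and 42, 0 and 0) and 9 and 23 in CD8 against other T cells (0 and 4, 3 and 7, 0 and 0; 5 and 16 with RLE scaling, 17 and 36 with predicted doublets kept). With 1 BPK 4NQO library left out there was no residual degree of freedom, so values carry no test. Called members then ran from 4.48 to 7.76 (Gzma) and 0.09 to 1.15 (Nkg7) in NK against CD8 T cells, from 3.37 to 5.20 (Gzma), 0.89 to 1.67 (Nkg7) and 1.99 to 4.45 (Eomes) in NK against other T cells, from -2.56 to -1.11 (Gzma) and 0.52 to 0.80 (Nkg7) in CD8 against other T cells, and from -5.30 to -4.57 (Gzmb), -3.91 to -3.56 (Nkg7) and -4.16 to -3.60 (Gzma) in the tumor comparison. No paired analysis was possible because the groups compared share fewer than 2 replicate numbers. Gating with 3 Cd3 genes left too few cells for the BPK against PK comparisons within T cells, which were not run.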

Other observations

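Klra4, 1 of the 8 NK receptor genes of the gate, had 8658 UMIs in the BPK tumor (153.2 CPM), 7743 of them in keratinocytes (196.0 CPM), against 11.8 and 44.0 CPM in keratinocytes of BPK 4NQO replicates 1 and 2. The other 7 receptor genes together had 2.46 CPM in the tumor and 8.90 and 12.4 CPM in BPK 4NQO replicates 1 and 2. In the tumor 88 of their 139 UMIs also lay in keratinocytes. The 1 NK cell gated in the tumor had no Klra4 UMI.

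In the BPK tumor 13 of 17 Ifng UMIs and 53 of 111 Nkg7 UMIs lay in 2 cells that had Cd3 genes together with markers of another lineage and were kept out of the gates.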
